A study of Homo sapiens with 18 samples.

Results

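Genes of the apical brush border and of solute and protein uptake, by which a proximal tubule cell is usually recognised, were examined in HK-2 cells. The set held 10 genes of the 19775 that had a probe set assigned to them alone, namely the endocytic receptors LRP2 and CUBN, the transporters SLC34A1, SLC5A2, SLC22A6 and SLC22A2, and the surface enzymes ANPEP, MME, DPP4 and GGT1. The genes were chosen by name. Each was represented by its 1-gene probe set with the highest mean over all 18 arrays, and 18 probe sets named these genes in all.

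HK-2 is an immortalized line of human proximal tubular epithelial cells, so all groups came from a single line. The cells received only control treatments: medium alone, DMSO (dimethyl sulfoxide) or ethanol, both solvents used as vehicles, each for 24 h or 48 h, with 3 biological replicates in each of the 6 groups. The shorter time is 24 h in the sample labels but 12 h in the design text, and the sample labels were followed. All groups shared a growth medium with EGF, hydrocortisone, insulin, transferrin and selenite, and solvent doses are not given in the sources used here. RNA was hybridized to Affymetrix HG-U133 Plus 2.0 arrays, and the deposited values are log2 expression after GCRMA (a background correction, normalization and summary of each probe set).

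The proximal tubule reclaims most of what the glomerulus filters. Its brush border carries megalin (LRP2) and cubilin (CUBN), which take up filtered proteins, sodium-coupled carriers for phosphate and glucose, and peptidases that trim filtered peptides. Organic anions and cations enter through carriers of the basolateral side. Cultured proximal tubule cells are known to lose many of these products.

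Array medians lay between 2.86 and 2.95, and 39.7% to 40.3% of an array's probe sets exceeded 4, the level used here to separate signal from background. Genes that exceeded 4 on 3 or more of the 18 arrays were tested, which held for 10832 genes (54.8%). Replicate 3 of the ethanol group at 24 h and at 48 h stood apart from the other 16 arrays, and differences in ethanol that rest on these 2 arrays are given with and without them. On them CDH1, the epithelial adhesion molecule E-cadherin, was at 2.58 and 3.77, against 6.61 to 9.04 on the others. The list of epithelial markers held KRT8, KRT18, KRT19, CDH1, EPCAM, PAX8 and VIM, of which VIM, vimentin, is also a mesenchymal marker that cultured epithelial cells express. The summed log2 level of this list was 74.9 and 77.0 on these arrays, against 80.5 to 83.8 on the others. Without VIM, left out after the values were seen, it was 60.5 and 62.7 against 66.7 to 69.7. Both sums include CDH1, so they are not separate from its low values, and no sum without CDH1 was taken. The summed level of 4 podocyte markers was 23.5 and 23.6 there, against 23.8 to 25.1. At 48 h all 3 ethanol arrays were at 23.6 to 23.8, so the low sum at that time was shared by the group. All 7 genes of the epithelial list had means above 4, while 0 of 4 distal nephron, 0 of 4 endothelial and 0 of 3 leukocyte markers did. Of the fibroblast markers 3 of 5 (DCN, LUM and COL1A1) and of the podocyte markers 2 of 4 (PTPRO and SYNPO) had means above 4.

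Only DPP4 of the 10 genes was above background. The other 9 were under 4 on all 18 arrays with each of their probe sets, so 1 of 10 genes (10.0%) entered the test, against 54.8% of all genes. These 9 genes, used to recognise the labelled cell type, were thus under the level with their 1-gene probe sets. PAX8, a transcription factor of renal epithelium, was at a mean of 10.81. For GGT1 this rests on 1 probe set just under the level, at a mean of 3.77, and signal of its gene family could not be told apart by gene. A value near background is a bound and does not show that a transcript is absent. Fewer cells with a transcript and less of it per cell cannot be told apart in these bulk samples.

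**Figure D1:**
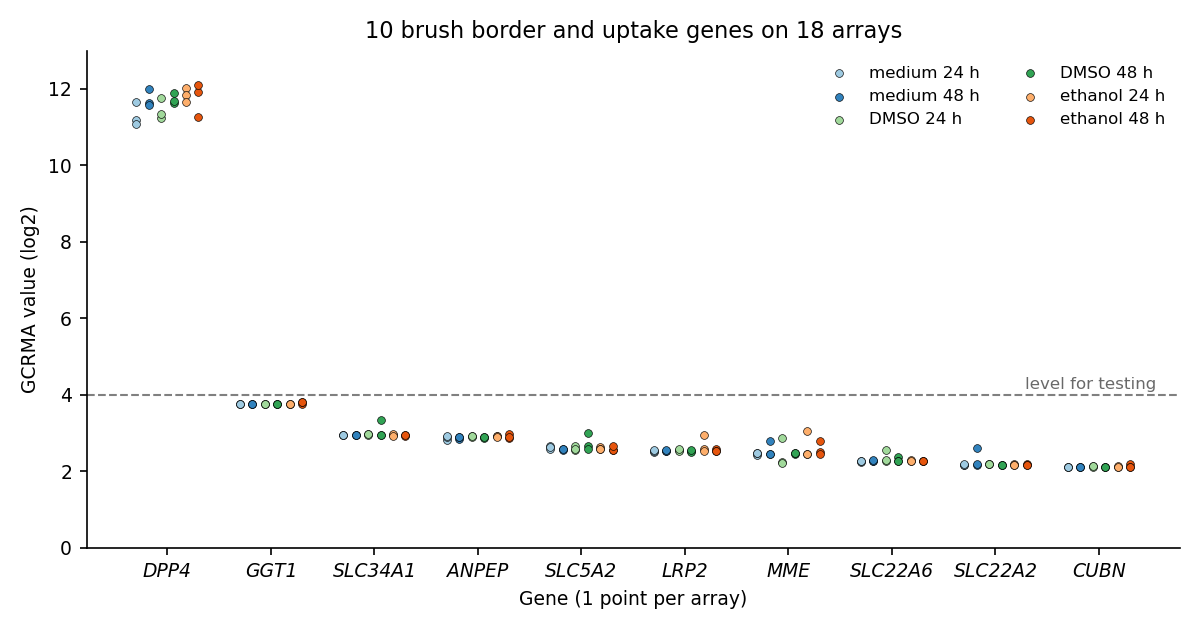
GCRMA values (log2, vertical axis) of the 10 genes, 1 point per array, coloured by group, with the dashed line at 4. DPP4 lies between 11.09 and 12.10 on all 18 arrays, and the other 9 genes lie under 4 on every array.

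The promoters of the members differed in base composition, and 3 are shown. DPP4 is the member above background, and SLC34A1 and SLC22A6 are near-background members whose windows hold the TATA box letters TATAAA, in SLC22A6 on the opposite strand. Windows run from 250 bases before to 50 bases after the start (RefSeq, GRCh38.p14), and all 10 genes matched, with 15 windows. Capitals mark TATAAA and the GC box GGGCGG, each searched on both strands, so that the reverse complements TTTATA and CCGCCC are in capitals too.
DPP4, chr2:162074166-162074465, minus strand: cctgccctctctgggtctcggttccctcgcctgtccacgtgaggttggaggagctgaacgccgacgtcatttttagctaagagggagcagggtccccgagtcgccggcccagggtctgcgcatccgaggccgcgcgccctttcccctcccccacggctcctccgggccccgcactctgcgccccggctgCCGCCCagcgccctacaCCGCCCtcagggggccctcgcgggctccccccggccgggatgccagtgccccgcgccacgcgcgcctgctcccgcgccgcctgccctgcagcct
SLC34A1, chr5:177384184-177384483, plus strand: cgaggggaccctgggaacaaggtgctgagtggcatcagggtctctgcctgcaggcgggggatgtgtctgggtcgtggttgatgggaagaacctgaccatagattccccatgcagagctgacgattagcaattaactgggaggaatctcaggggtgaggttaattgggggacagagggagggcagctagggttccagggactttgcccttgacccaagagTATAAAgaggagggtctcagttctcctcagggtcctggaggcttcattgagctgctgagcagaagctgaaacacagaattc
SLC22A6, chr11:62984918-62985217, minus strand: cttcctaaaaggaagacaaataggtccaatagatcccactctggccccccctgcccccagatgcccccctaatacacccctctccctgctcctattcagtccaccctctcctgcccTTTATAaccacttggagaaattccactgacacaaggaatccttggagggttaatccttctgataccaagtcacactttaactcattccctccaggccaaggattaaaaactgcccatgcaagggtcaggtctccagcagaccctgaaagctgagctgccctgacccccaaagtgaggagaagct

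The DPP4 window had a GC content of 75.0% and an observed to expected CpG ratio of 0.84, with 2 GC boxes and no TATAAA. The SLC22A6 window had a GC content of 52.0% and a CpG ratio of 0.0, with 1 TATAAA. The SLC34A1 window had a GC content of 55.3%, a CpG ratio of 0.189 and 1 TATAAA. Over the 35116 windows of all genes the median GC content was 58.7% and the median CpG ratio 0.579. GGGCGG was in 9 of the 15 windows of the members and in 45.0% of all windows, and TATAAA was in 2 of the 15 (SLC34A1 and SLC22A6) and in 11.5% of all. A high GC content was not particular to DPP4: a window of ANPEP, a gene near background here, also had 75.0%, with a CpG ratio of 0.815. Neither motif contains the other. The matches describe the letters of the windows only.

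Both endocytic receptors were near background. LRP2, the large receptor megalin, had a mean of 2.57 (range 2.50 to 2.95). Its highest value was on replicate 1 of ethanol at 24 h, where replicates 2 and 3 were at 2.57 and 2.53, and its other probe set was at 2.54 on that array. CUBN, the receptor cubilin that binds vitamin B12 with intrinsic factor as well as albumin, had a mean of 2.12 (range 2.10 to 2.19). The range of LRP2 therefore came from 1 array and 1 of 2 probe sets.

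The 4 transporters were flat over most arrays, with 1 or 2 higher arrays each. SLC34A1, the sodium-phosphate cotransporter of the brush border, had a median of 2.95, and SLC5A2, the glucose carrier SGLT2, a median of 2.59. Both were highest on replicate 3 of DMSO at 48 h, at 3.35 and 3.00, while replicates 1 and 2 of that group were at 2.95 and 2.94 for SLC34A1 and at 2.66 and 2.58 for SLC5A2. The other SLC34A1 probe set was at 2.38 on that array and nowhere above 2.40. SLC22A6, the organic anion transporter OAT1, had a median of 2.27 and its highest value of 2.55 on replicate 1 of DMSO at 24 h, followed by 2.38 on replicate 1 of DMSO at 48 h. SLC22A2, the organic cation transporter OCT2, had a median of 2.18 and its highest value of 2.62 on replicate 2 of medium at 48 h. In the group of each gene's highest array, the other 2 arrays stayed near the gene's median. The ranges of SLC22A2 at 24 h and 48 h in DMSO did not overlap, with a difference of -0.01 on the log2 scale. The same held for GGT1, also at -0.01. Of the genes tested, which do not include SLC22A2 or GGT1, 22.8% had no overlap in this comparison.

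Among the enzymes, ANPEP, aminopeptidase N, had a mean of 2.90 (range 2.83 to 2.96), and its other 2 probe sets had means of 2.35 and 1.98. MME, neprilysin, varied most of the 9 genes, from 2.23 to 3.05. It was above 2.8 on 4 arrays, each in a different group: 3.05 on replicate 2 of ethanol at 24 h, 2.86 on replicate 3 of DMSO at 24 h, 2.81 on replicate 1 of ethanol at 48 h and 2.80 on replicate 3 of medium at 48 h. The other MME probe set was also highest on replicate 2 of ethanol at 24 h, at 2.52 against 2.42 or less elsewhere. The lowest values of the representing probe set, both 2.23, were on replicates 1 and 2 of DMSO at 24 h. MME was thus higher on scattered arrays and in no group as a whole.

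GGT1, the gamma-glutamyltransferase that starts the breakdown of extracellular glutathione, lay just under the level, with a mean of 3.77. In ethanol at 48 h its arrays were at 3.77, 3.83 and 3.83, against 3.75, 3.75 and 3.76 in medium at 48 h. These ranges did not overlap, but the difference was 0.05 on the log2 scale. Of the genes tested, which do not include GGT1, 29.6% had no overlap in this comparison. No such share was taken over genes near background. Only 1 probe set was assigned to GGT1 alone. GGTLC1, a shorter gene of the same family, was at 7.25 to 8.48 with a probe set of a type whose probes can match several transcripts, so signal of the family cannot be told apart by gene here; GGTLC1 was looked at after its values were seen.

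The median range over the arrays of the 9 near-background genes was 0.41 and the highest, that of MME, 0.82, against a median of 0.08 over the 8582 genes that were under 4 on all 18 arrays. GGT1 and CUBN ranged about as far as that median, and LRP2 and the transporters ranged further through the arrays named above. With no filter on low values, the 9 genes gave 90 tests in the 10 comparisons (limma). Of these 4 had an unadjusted p under 0.05, all of GGT1, and 0 passed. The smallest adjusted p was 0.0572, for GGT1 in ethanol minus medium at 48 h. At these levels no difference between groups is drawn from the 9 genes.

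DPP4, dipeptidyl peptidase 4, cleaves dipeptides from incretins and chemokines and anchors adenosine deaminase at the cell surface. In medium its replicates 1, 2 and 3 were at 11.20, 11.67 and 11.09 at 24 h, and at 11.62, 12.00 and 11.59 at 48 h. In DMSO they were at 11.24, 11.76 and 11.36 at 24 h, and at 11.64, 11.90 and 11.68 at 48 h. Replicate 2 was the highest of its group in all 4 of these groups.

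In ethanol the DPP4 replicates were at 12.04, 11.85 and 11.66 at 24 h, and at 11.91, 12.10 and 11.27 at 48 h. Replicate 3 was the lowest in both ethanol groups. The group means in ascending order were 11.32 ± 0.31 (SD, n = 3 here and below) in medium at 24 h, 11.45 ± 0.27 in DMSO at 24 h, 11.74 ± 0.14 in DMSO at 48 h, 11.74 ± 0.23 in medium at 48 h, 11.76 ± 0.43 in ethanol at 48 h and 11.85 ± 0.19 in ethanol at 24 h. Neighbours in this order differed by less than their spread, except for the step of 0.29 from DMSO at 24 h to DMSO at 48 h, where the ranges overlapped.

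**Figure D2:**
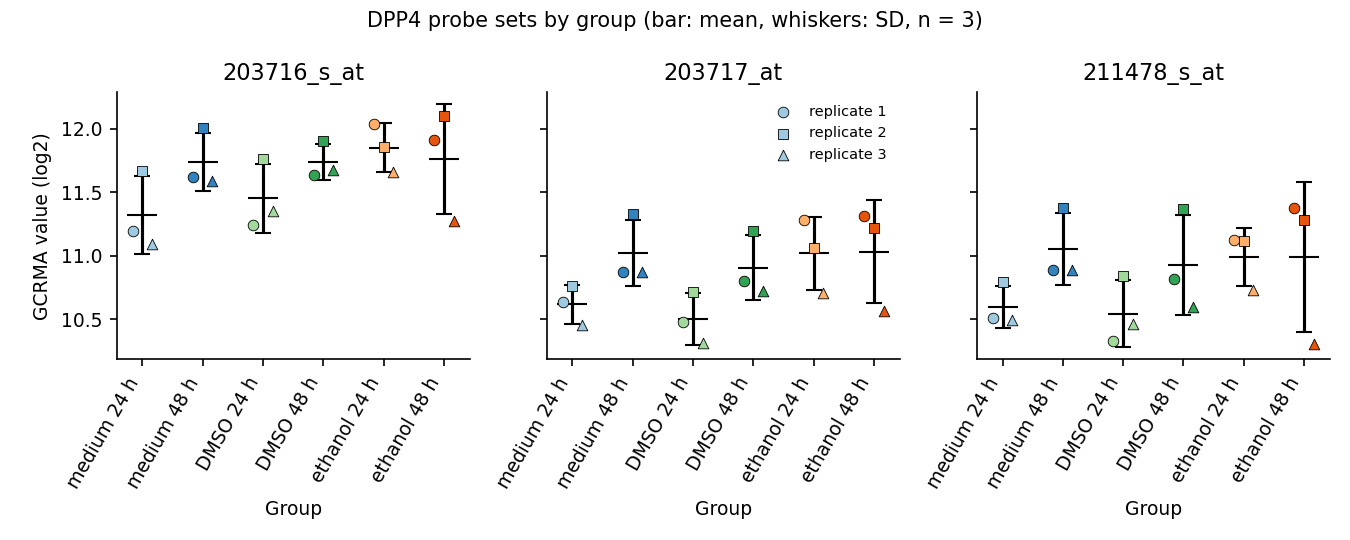
GCRMA values (log2, vertical axis) of the 3 DPP4 probe sets in the 6 groups, with symbols for replicates 1 to 3, horizontal bars for group means and whiskers for the SD (n = 3). In medium and DMSO the means are higher at 48 h than at 24 h with each probe set, and replicate 3 is the lowest array of ethanol at 48 h.

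DPP4 passed in none of the 10 comparisons (limma over 18 arrays, Benjamini-Hochberg adjusted p under 0.05). The largest difference was ethanol minus medium at 24 h, 0.53 ± 0.22 (SE; 95% confidence interval 0.07 to 0.99, adjusted p = 0.485). In that comparison 8 of the 10832 genes passed, or 0.0739%. At 48 h the difference was 0.02 ± 0.22 (interval -0.44 to 0.48, adjusted p = 0.963), where 15.3% of genes passed. Averaged over both times, ethanol minus medium was 0.28 ± 0.15 (interval -0.05 to 0.60, adjusted p = 0.249), where 12.3% passed. DMSO minus medium was 0.13 ± 0.22 at 24 h (interval -0.33 to 0.59), and the interval at 48 h ran from -0.46 to 0.46; 0.0% of genes passed at either time.

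The ethanol difference of DPP4 depended on the ethanol replicate 3 arrays. These arrays were singled out by values of the same data. They held the lowest DPP4 value of each ethanol group, so leaving them out could only raise the ethanol means. Without both of them, ethanol minus medium averaged over both times was 0.45 ± 0.14 (interval 0.15 to 0.75, adjusted p = 0.0468), a mean of 11.97 against 11.53, and this passed; 15.4% of all genes did so in that fit. At 24 h it was 0.63 ± 0.20 (adjusted p = 0.161) and at 48 h 0.27 ± 0.20 (adjusted p = 0.385). With array weights, which give less weight to arrays far from the fit, the difference at 24 h was 0.69 (adjusted p = 0.0194) with all 18 arrays kept. DPP4 was thus called in these 2 settings and not in the others run, and why it was called under array weights was not tested. The other 2 DPP4 probe sets were not refitted in these 2 settings.

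With time, DPP4 was higher at 48 h by 0.42 ± 0.22 in medium (interval -0.04 to 0.88, adjusted p = 0.476) and by 0.29 ± 0.22 in DMSO (interval -0.18 to 0.75, adjusted p = 0.651). In ethanol the difference was -0.09 ± 0.22 (interval -0.55 to 0.37, adjusted p = 0.805). Averaged over the 3 controls it was 0.20 ± 0.12 (adjusted p = 0.234), in a comparison where 28.2% of genes passed. The time change in ethanol minus that in medium was -0.51 ± 0.31 (interval -1.16 to 0.14, adjusted p = 0.524; 1.59% of genes passed). In medium, each replicate was higher at 48 h than the array of the same number at 24 h, and the same held in DMSO. With the replicate number as a block, the interval with time was 0.10 to 0.74 in medium (limma, adjusted p = 0.121) and -0.03 to 0.60 in DMSO (adjusted p = 0.303). It was 0.02 to 0.39 averaged over the 3 controls (adjusted p = 0.0719). For the difference of time changes it was -0.96 to -0.06 (adjusted p = 0.19). None of these passed.

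**Figure D3:**
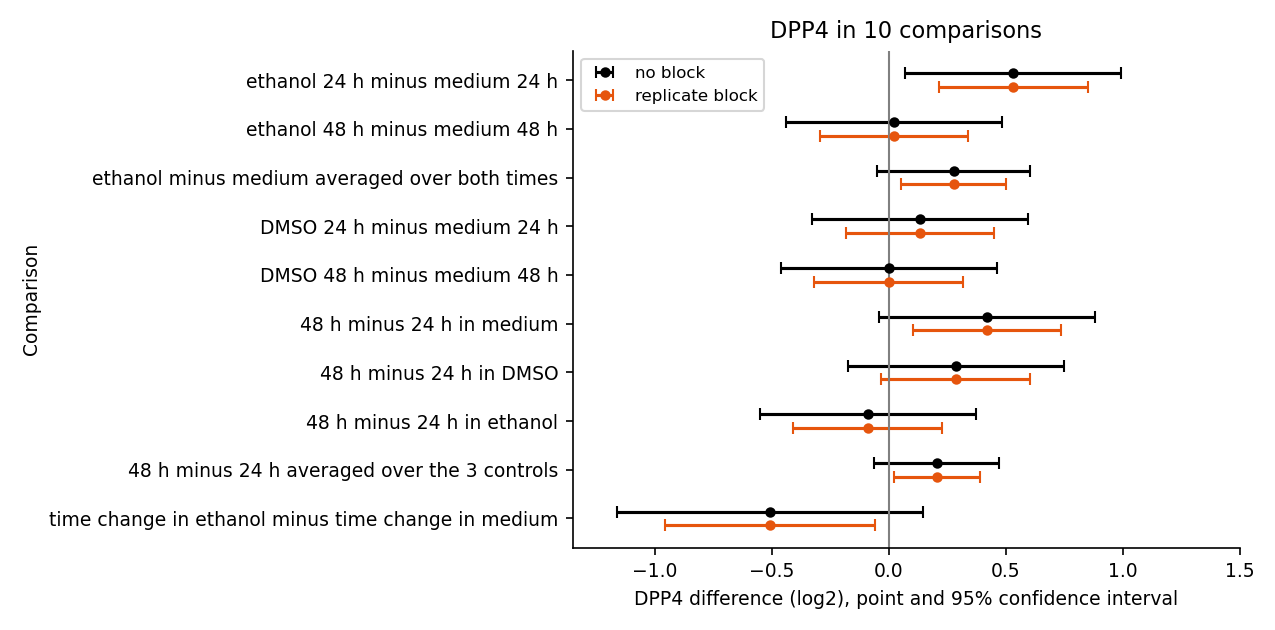
DPP4 differences (log2, horizontal axis) in the 10 comparisons, as points with 95% confidence intervals, from the fit without (black) and with (orange) the replicate number as a block. The interval of ethanol minus medium at 24 h lies above 0 in both fits. With the block only, so do those of ethanol minus medium averaged over both times and of time in medium and averaged over the 3 controls. That of the difference of time changes lies below 0 with the block only. After adjustment over all genes no comparison passed.

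The other 2 DPP4 probe sets differed in the same direction in ethanol at 24 h, while in DMSO at 24 h both lay below medium, by less than their spread. The means of 203717_at and 211478_s_at over the 18 arrays were both 10.85, against 11.64 for the representing probe set, 203716_s_at. Ethanol minus medium at 24 h was 0.40 ± 0.21 with 203717_at and 0.39 ± 0.27 with 211478_s_at. With 203717_at the ranges at 24 h and 48 h did not overlap in medium (10.45 to 10.76 against 10.87 to 11.33) or in DMSO, where the nearest values were 10.716 at 24 h and 10.723 at 48 h. Of the genes tested, 26.6% had no overlap with time in medium and 22.8% in DMSO. Neither probe set passed in any of the 10 comparisons.

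The genes whose values followed DPP4 most closely over the 18 arrays were C4orf33, RBBP9 and DDX17. Likeness was the root mean square difference after each gene was centred on its mean, which was 0.16, 0.17 and 0.18 on the log2 scale, against 0.30 for DPP4 about its own mean. The 3 genes are named as a description, since DPP4 passed in no comparison.

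Genes that work with the members were examined in 6 lists of 78 genes, of which 67 had a 1-gene probe set and 30 (44.8%) were tested. All 9 measured partners of megalin and cubilin were above the level, although both receptors were not. They included RAB11A (12.08), a GTPase of recycling endosomes, FOLR1 (11.72), the folate receptor alpha, LRPAP1 (9.33), the chaperone that keeps ligands off megalin during its synthesis, and DAB2 (6.92), an adaptor of the megalin tail. Of the brush border scaffold 5 of 15 were, namely EZR, EPS8, PLS1, PDZK1 and NHERF1. Villin (VIL1), espin (ESPN) and the intermicrovillar cadherins CDHR2 and CDHR5 were among the 10 scaffold genes that were not tested.

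Of the apical solute transporters 5 of 19 were tested: SLC20A1, SLC3A1, SLC20A2, SLC6A19 and SLC15A1, the last through 4 arrays only. Of the organic ion transporters 5 of 10 were tested (SLCO4C1, SLC17A3, SLC17A1, SLC22A4 and SLC22A5), and of the other apical peptidases and ectoenzymes 5 of 13 (CPM, ENPEP, NT5E, ECE1 and GGT7). Of the transcription factors only HNF4G had a 1-gene probe set, at a mean of 5.77. Genes of the lists with no such probe set were not analysed here.

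**Figure D4:**
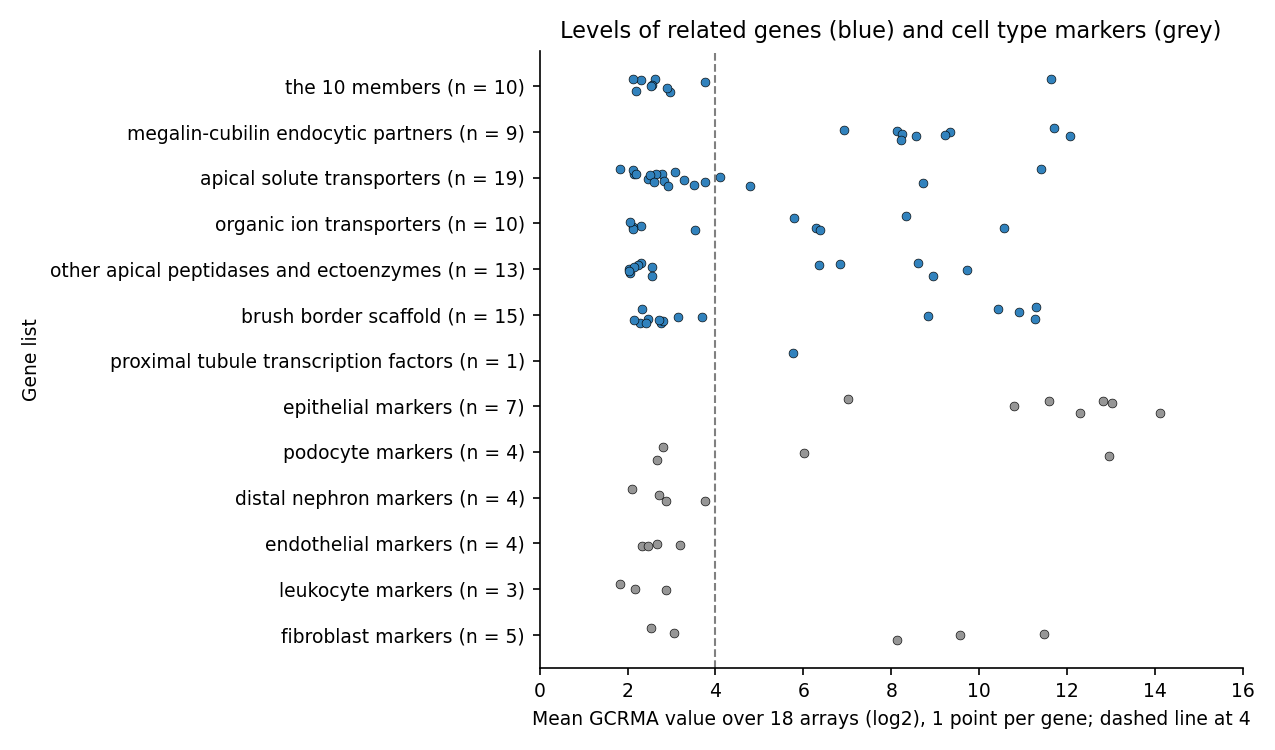
Mean GCRMA value over 18 arrays (log2, horizontal axis) of each gene, 1 point per gene, for the 10 members and 6 lists of related genes (blue) and 6 lists of cell type markers (grey), with the dashed line at 4. All 9 endocytic partners lie above 4, against 1 of the 10 members.

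Of the 30 related genes, 2 passed with treatment at a single time. In ethanol minus medium at 48 h 1 of 30 rose, where 7.8% of all genes did, and 1 of 30 fell, where 7.47% did; their median difference was 0.02, against -0.04 over all genes tested. At 24 h 0 of 30 passed (1 with an unadjusted p under 0.05), averaged over both times 0 of 30 where 12.3% of all genes passed (5 with an unadjusted p under 0.05), and DMSO minus medium gave 0 of 30 at either time (0 with an unadjusted p under 0.05), all with limma. The averaged count was 3 of 30 with the replicate block, where 22.9% of all genes passed, and 7 of 30 without both ethanol replicate 3 arrays, where 15.4% did. No gene was in both counts, and their genes are named after the values were seen. The 3 were SLC15A1, ENPEP and ECE1, each outside the range of the other 16 arrays on both ethanol replicate 3 arrays. The 7 were LRPAP1, MYO6, SLC20A1, SLC22A4, SLC17A3, NT5E and HNF4G. SLC15A1 stayed among the 30 without these arrays, although it was tested only through them.

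LRPAP1 fell in ethanol at 48 h. Its arrays were at 8.67, 8.78 and 8.99 there and at 9.52, 9.40 and 9.11 in medium at 48 h, so that the ranges did not overlap (29.6% of genes had none). The difference was -0.53 ± 0.12 (adjusted p = 0.0110), and -0.44 (adjusted p = 0.0532) without replicate 1 of medium at 48 h. Its other 2 probe sets differed by less than their spread. The means at 48 h in ethanol and medium were 6.47 and 6.55 with the dimmer of them, and 8.21 and 8.16 with the brighter. With the mean of the probe sets the difference was -0.19 (adjusted p = 0.396).

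HNF4G, a transcription factor related to HNF4A, rose in ethanol at 48 h. Its arrays were at 6.72, 6.31 and 6.67 there and at 5.82, 5.55 and 5.69 in medium at 48 h. The ranges did not overlap (29.6% of genes had none). The difference was 0.88 ± 0.25 (adjusted p = 0.0282). It was 0.80 to 1.01 with each array left out in turn, and the adjusted p was above 0.05 in 5 of these 18 fits, up to 0.0846. Its other probe set was under 4 on every array, at means of 2.86 and 2.72. In the same comparison 1 of 2 tested podocyte markers, 1 of 3 tested fibroblast markers and 0 of 7 tested epithelial markers passed, where 15.3% of all genes did. The summed log2 level of the podocyte markers was 23.6 to 23.8 in ethanol at 48 h and 24.6 to 24.7 in medium at 48 h. PTPRO, a receptor phosphatase of podocytes, fell by 1.08 (limma, adjusted p = 0.00218), while the median difference of the 2 tested podocyte markers was -0.48. The other tested one, SYNPO, did not pass, and NPHS1 and WT1 were under 4 on every array. For the fibroblast markers the summed log2 level was 30.8 to 34.5 and 34.6 to 35.1, and LUM, lumican, fell by 1.07 (adjusted p = 0.0135). Whether these shifts bear on LRPAP1 or HNF4G was not tested.

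With time, averaged over the 3 controls, 3 of the 30 genes rose and 3 fell, where 13.1% of all genes rose and 15.1% fell. The median difference was 0.03, against -0.01 over all genes tested. CLCN5, the endosomal chloride-proton exchanger mutated in Dent disease, rose by 0.84 ± 0.23 (adjusted p = 0.0146). Its replicates were at 7.87, 7.71 and 7.06 at 24 h in medium and at 8.94, 8.83 and 8.11 at 48 h. In each of the 3 controls, each replicate was higher at 48 h than the array of the same number at 24 h, and replicate 3 was the lowest of its group throughout.

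Same-numbered arrays were correlated within each treatment. The replicate block, however, fits 1 effect per replicate number shared by all 6 groups, and pairing did not hold for ethanol at 48 h with medium or DMSO. With this block CLCN5 passed in each control. The difference with time was 1.08 ± 0.12 in medium (adjusted p = 0.00153), 0.74 ± 0.12 in DMSO (adjusted p = 0.0117) and 0.68 ± 0.12 in ethanol (adjusted p = 0.000832). Without the block CLCN5 passed in none of the 3 alone, and in medium and DMSO 0.0% of all genes did. With the block 1 of 30 related genes passed in medium, where 4.04% of all genes did, and 1 of 30 in DMSO, where 2.37% did. In ethanol 7 of 30 passed with the block (32.8% of all genes) and 4 of 30 without it (23.0%).

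MYO6, the myosin that moves endocytic vesicles from the brush border, rose with time by 0.70 ± 0.23 averaged over the 3 controls (adjusted p = 0.0335), and lost its call in 9 of the 18 fits without 1 array. Averaged over the 3 controls, LRPAP1, RAB11A and NHERF1 (the scaffold protein that anchors apical carriers to ezrin) fell and HNF4G rose. These calls were lost in 13 of the 18 fits without 1 array for NHERF1, in 7 for HNF4G, in 6 for RAB11A and in 0 for LRPAP1, whose averaged difference turned from -0.29 to 0.01 with the mean of its probe sets.

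The 4 genes passed in ethanol, where 23.0% of all genes did, and in neither medium nor DMSO, where 0.0% did. The lack of a call in medium and DMSO was therefore shared by every gene tested. For LRPAP1 the difference with time was -0.09 in medium, -0.10 in DMSO and -0.68 ± 0.12 in ethanol (adjusted p = 0.00151). RAB11A differed by -0.02, -0.04 and -0.42 ± 0.09 (adjusted p = 0.00452 in ethanol). NHERF1 differed by -0.24, -0.04 and -0.59 ± 0.18 (adjusted p = 0.0287 in ethanol). HNF4G differed by 0.13, 0.25 and 0.98 ± 0.25 (adjusted p = 0.0113 in ethanol). The test of the time change in ethanol minus that in medium passed for 0 of the 30 related genes (3 with an unadjusted p under 0.05, limma).

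The other 2 LRPAP1 probe sets did not fall in ethanol. The dimmer was at 5.69, 5.62 and 5.96 at 24 h and at 7.07, 6.77 and 5.57 at 48 h, and the brighter had means of 8.10 and 8.21. With the mean of the probe sets the LRPAP1 difference within ethanol turned to 0.04, and that of RAB11A was -0.34 (adjusted p = 0.118). Without both ethanol replicate 3 arrays, the difference within ethanol was -0.41 for NHERF1 (adjusted p = 0.176) and 0.59 for HNF4G (adjusted p = 0.0798).

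The ethanol replicate 3 arrays held wide departures of related genes. The following genes were named after their values were seen. ENPEP, glutamyl aminopeptidase, was at 4.43 on the 24 h array and 5.62 on the 48 h array, against 8.54 to 10.24 on the other 16. PDZK1, a scaffold of apical carriers, was at 7.26 and 7.94, against 9.92 to 11.40. SLC17A1, an organic anion and phosphate carrier, was at 3.92 and 3.37, against 5.69 to 7.62.

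CPM, carboxypeptidase M, was at 8.35 and 6.51 there, against 9.39 to 10.61 on the other 16 arrays. SLC3A1, the heavy subunit of the cystine carrier, was at 7.65 and 7.57, against 7.73 to 9.81. Other genes lay higher on these arrays: SLC22A4, an organic cation carrier, was at 8.63 and 8.30, against 5.23 to 6.62, and SLC15A1, the peptide carrier PEPT1, at 5.02 and 6.53, against 3.12 to 4.33. SLC15A1 exceeded 4 on 3 or more arrays only with these 2 counted. Of the 29 related genes that did so among the other 16 arrays, 7 were below all of those 16 on both of these arrays (24.1%) and 5 were above (17.2%). Over all 10777 genes chosen in this way the shares were 8.2% and 5.38%.

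DPP4 was within the range of the other arrays, at 11.66 and 11.27 against 11.09 to 12.10, while its mean on the other 4 ethanol arrays was 11.97. The 9 near-background genes stayed under 4 on both arrays. Ethanol minus medium averaged over both times was -1.67 ± 0.79 for ENPEP with all arrays (adjusted p = 0.176) and -0.23 ± 0.25 without these 2 (adjusted p = 0.576). For PDZK1 it was -1.02 ± 0.61 with them (adjusted p = 0.287) and 0.08 ± 0.23 without (adjusted p = 0.838), and for CPM -0.77 ± 0.51 (adjusted p = 0.333) and 0.15 ± 0.12 (adjusted p = 0.440). The low epithelial marker sum of these arrays, which includes the low CDH1, moved with the genes named here. So did the low podocyte marker sum at 24 h, while that at 48 h was shared by the whole ethanol group. The part of these markers was not tested.

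**Figure D5:**
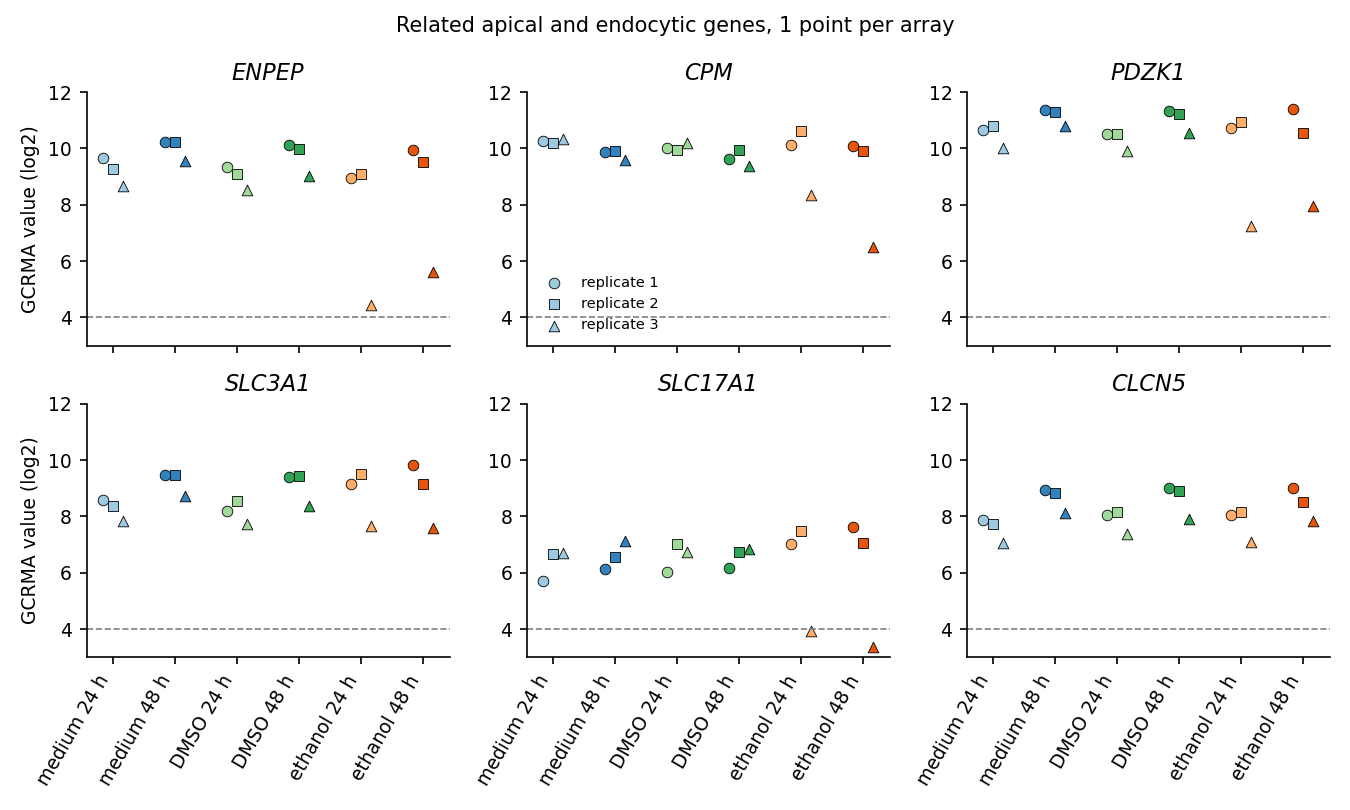
GCRMA values (log2, vertical axis) of 6 related genes in the 6 groups, 1 point per array, with symbols for replicates 1 to 3 and the dashed line at 4. ENPEP, CPM, PDZK1 and SLC17A1 are far lower on both ethanol replicate 3 arrays than on the other 16, and CLCN5 is higher at 48 h than at 24 h for each replicate number.

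With both ethanol replicate 3 arrays left out, more of the related genes passed. Averaged over both times, 3 rose and 4 fell in ethanol against medium (7 of 30, where 15.4% of all genes passed), among them SLC20A1, a phosphate carrier, by -0.66 ± 0.13 (adjusted p = 0.00771), against -0.22 ± 0.29 with all arrays (adjusted p = 0.658). With time over the 3 controls 6 rose and 7 fell (13 of 30, where 31.4% of all genes passed). Among these, chosen after their values were seen, ENPEP rose by 0.75 ± 0.20 (adjusted p = 0.0131), against 0.80 ± 0.64 with all arrays (adjusted p = 0.371). SLC3A1 rose by 0.67 ± 0.21 (adjusted p = 0.0255), against 0.65 ± 0.31 (adjusted p = 0.134). CPM fell by 0.43 (adjusted p = 0.00598), while with all arrays the difference was -0.59 ± 0.41 (adjusted p = 0.303).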

How the data were processed

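The deposited values are log2 expression of 54675 probe sets on 18 HG-U133 Plus 2.0 arrays, made by the authors with GCRMA per the submitters' processing notes; no version is named. That the scale is log2 was judged from the range of 0.88 to 16.14. Of the probe sets, 41091 had exactly 1 gene in the platform table, 1801 several and 11721 none listed, and 62 were controls. For 41037 of the 1-gene probe sets the symbol was taken from RefSeq by gene identifier. Arrays have no read depth, and their number limits the precision.

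Means of the 6 groups entered 1 fit in limma 3.58.1 (R 4.3.3; 12 residual and 2.65 prior degrees of freedom) with 10 contrasts. P-values are two-sided and Benjamini-Hochberg adjusted over 10832 genes, and errors beside differences are standard errors. P-values measure the spread between the samples that the labels call biological replicates. On simulated data for ethanol against medium at 48 h over 10832 genes, 77 of 100 genes changed by a log2 of 1 and 96 of 100 changed by a log2 of 2 were recovered, with 15 false calls among 188 in all (7.98%).

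Replicate numbers were taken to pair arrays where deviations from group means correlated above 0.1 for every same-numbered pair of arrays. This held among medium and DMSO (0.526 to 0.731), for ethanol at 24 h with them (0.149 to 0.48) and for ethanol at 24 h with 48 h (0.319 to 0.68). It did not hold for ethanol at 48 h with medium or DMSO (-0.0834 to 0.411). The replicate block fits 1 effect per replicate number shared by all 6 groups, so for ethanol at 48 h it assumes a pairing that did not hold.

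The members and gene lists were chosen with earlier results of these data known. Named were the 10 members and those list genes that passed in ethanol against medium or with time, the largest first and at most 6 a list; others are marked as chosen after their values were seen. Alternatives covered normalization, the filter, the probe set, the empirical Bayes step, array weights, the samples in the fit, the block and each array left out.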

Additional observations from a re-analysis of the deposited data

How the results depend on the processing

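DPP4 passed in none of the 10 comparisons and stayed short of the threshold in 297 of 299 refits, some of which turned the sign of differences near 0. The other 2 refits passed, at 0.69 for ethanol minus medium at 24 h with array weights and at 0.45 averaged over both times without both ethanol replicate 3 arrays. Those arrays held the lowest DPP4 value of each ethanol group. With 1 array left out in turn, the difference at 24 h ran from 0.42 to 0.71, and none of these fits passed. The replicate block left it at 0.53 (adjusted p = 0.121). The number of members above background was 2 with the level at 3, where GGT1 joined DPP4, and 1 with it at 5. LRPAP1 turned direction with the mean of its probe sets, to 0.0442 with time in ethanol and to 0.0131 with time averaged over the 3 controls.

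The number of the 30 related genes that passed was within 1.5 times the first count in 248 of 279 refits. In ethanol minus medium at 24 h (0) it was 2 with array weights and 1 without both ethanol replicate 3 arrays. In ethanol minus medium at 48 h (2) it was 1 with no filter, 0 with only the groups compared, 5 without both ethanol replicate 3 arrays, and 0 to 3 with 1 array left out, with 0 without replicate 1 and 1 without replicate 2 or 3 of medium at 48 h. Averaged over both times (0) it was 1 with quantile normalization, 2 with array weights, 3 with the replicate block, 7 without both ethanol replicate 3 arrays, and 0 to 3 with 1 array left out, the highest without replicate 3 of ethanol at 24 h. With time in medium and in DMSO (0 each) it was 1 with the replicate block. With time in ethanol (4) it was 2 with the mean of probe sets, 0 with only the groups compared, 7 with the replicate block, and 3 to 5 with 1 array left out. With time averaged over the 3 controls (6) it was 3 with no filter, 13 without both ethanol replicate 3 arrays, and 2 to 8 with 1 array left out, the lowest without replicate 1 of medium or DMSO at 24 h or replicate 2 of DMSO at 48 h. For the difference of time changes (0) it was 2 without both ethanol replicate 3 arrays and 0 to 1 with 1 array left out, the highest without replicate 3 of ethanol at 48 h. The causes were not tested.

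Calls with time averaged over the 3 controls were lost in 13 of 18 fits without 1 array for NHERF1, 9 for MYO6, 7 for HNF4G, 6 for RAB11A and 0 for LRPAP1 and CLCN5. For LRPAP1 the call in ethanol minus medium at 48 h was lost without replicate 1 of medium at 48 h. For HNF4G that call was lost without any one of the 3 medium arrays at 48 h or replicate 1 or 3 of ethanol at 48 h. For NHERF1 the call with time in ethanol was lost without replicate 3 at 24 h or replicate 2 or 3 at 48 h. Signal over background limits the 9 dim genes, and a change that stays under a log2 of 4 was not read as a difference here.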
